A study of Rattus norvegicus with 12 samples.

Results

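The transcripts described here are those of the rat mitochondrial genome in the line INS-1 832/3, rat insulinoma cells that make insulin and are used in place of pancreatic beta cells. They were taken by gene name from a table of 31368 genes, which held 37 of them: 2 ribosomal RNAs (rRNAs), 13 messenger RNAs (mRNAs) and 22 transfer RNAs (tRNAs). The filter on low counts kept both rRNAs, all 13 mRNAs and 13 of the 22 tRNAs, 28 genes among 16814 tested. The study asked how urolithin B, a gut microbial metabolite of dietary ellagitannins, and islet amyloid polypeptide (IAPP), which beta cells release with insulin and which can aggregate into amyloid, changed gene expression in these cells. Wild-type cells were given urolithin B (50 uM, 12 h) followed by IAPP (2 uM, 24 h), IAPP alone (2 uM, 24 h) or urolithin B alone (50 uM, 12 h), or were left untreated as control. The cells are 1 tumour line, and each of these 4 groups had 3 libraries, numbered 1 to 3 and labelled as biological replicates. The labels do not say whether they came from separate cultures, so the p-values measure the spread between libraries. Also unstated is whether the cultures with urolithin B alone stood for the later 24 h, and from which species the IAPP sequence came.

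The mitochondrial genome is a small circular DNA that encodes core subunits of the respiratory chain and of ATP synthase together with the rRNAs and tRNAs needed to translate them. In mammals it is transcribed from both strands into long precursors, and the tRNAs that lie between most other genes are cut out to release them. Beta cells depend on oxidative phosphorylation, since ATP made in mitochondria closes the potassium channels that couple glucose to insulin release.

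Library totals ran from 4828003 to 6681455 counts. The 4 replicate 1 libraries, 1 in each group, stood apart from the other 8. They detected 22139 to 22615 genes, against 19529 to 20201 in the others, and their normalization factors (TMM, which scales libraries to each other) were 1.15 to 1.24, against 0.81 to 0.98. Ptprc, the leukocyte marker CD45, had 7.57 to 8.67 CPM (counts scaled to the library total and TMM factor) in the replicate 1 libraries and 0.171 to 2.05 CPM in the others. Of the 9 beta-cell markers, 8 were detected, Neurod1 being listed at 0, and their summed level was 15730 to 20560 CPM in the replicate 1 libraries and 22600 to 33780 CPM in the others. By treatment it was 20560 to 31210 CPM in urolithin B + IAPP, 15730 to 24590 in IAPP, 20210 to 33780 in urolithin B and 16060 to 25640 in control libraries. Ins1 was the largest part of this sum, which hides differences in single markers. Mafa, Slc2a2, Chga and Nkx2-2 were lower in IAPP than in control libraries without overlap. Mafa had 186, 142 and 128 CPM in IAPP and 307, 375.5 and 377 CPM in control libraries. Nkx6-1 was higher without overlap, and Ins1, Ins2 and Pdx1 overlapped. Of the 5 markers of other islet endocrine cells, Sst and Ppy were at 0, and the summed level was 19.8 to 43.9 CPM in the replicate 1 libraries and 78.1 to 210.8 CPM in the others. Of the 6 markers of stroma, endothelium and blood, Col1a2 was at 0, and the summed level was 32.01 to 82.7 CPM in the replicate 1 libraries and 4.28 to 29.3 CPM in the others. The part of such differences in the results below was not tested. Same-numbered libraries deviated together from their group means, but only through replicate 1. Without its libraries, these deviations correlated with r of -0.058 to 0.021 between same-numbered libraries. Differences within replicate 2 or within replicate 3 therefore rest on the labels' numbers alone. Results are given from the fit without the replicate number and, where a call changes, also from the fit with the number as a block.

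The mitochondrial genes took a large share of each library, and that share differed more between replicate 1 and the other replicates than between treatments. The urolithin B + IAPP libraries had 10.9%, 31.0% and 27.0% of counts in replicates 1, 2 and 3, and the IAPP libraries 12.6%, 25.7% and 31.0%. The share was 13.3%, 22.6% and 21.0% in urolithin B libraries, and in control libraries 13.0%, 22.6% and 20.6%. Every replicate 1 library lay below every other library, with 12.5% ± 1.11 (SD, n = 4) against 25.2% ± 4.19 (SD, n = 8). The group means were 22.9% ± 10.7 in urolithin B + IAPP, 23.1% ± 9.45 in IAPP, 19.0% ± 4.94 in urolithin B and 18.7% ± 5.06 in control libraries (SD, n = 3 each), so the groups differed by less than their spread. In bulk RNA, more mitochondrial RNA per cell and less of the other RNAs cannot be told apart, nor can a change in the mix of cells from a change within them. The 95% Wilson intervals of the rRNA, mRNA and tRNA shares were at most ± 0.0347 percentage points wide, and they cover counting error only.

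The rRNAs took most of these counts. They made up 57.8% to 67.6% of the mitochondrial counts of a library. Their share of all counts was 6.52%, 19.4% and 17.1% in urolithin B + IAPP libraries, 8.27%, 16.2% and 20.9% in IAPP libraries, 8.83%, 13.8% and 13.7% in urolithin B libraries and 8.33%, 13.1% and 13.5% in control libraries. Replicates 2 and 3 of both IAPP-treated groups lay above those of both groups without IAPP, and their replicate 1 libraries lay below those of the 2 others. The mRNAs took 3.91%, 11.02% and 9.28% in urolithin B + IAPP, 4.05%, 8.91% and 9.53% in IAPP, 4.23%, 7.92% and 6.78% in urolithin B and 4.45%, 8.98% and 6.595% in control libraries, and there the groups overlapped in replicates 2 and 3 as well. The tRNAs took 0.242% to 0.855%.

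**Figure D1:**
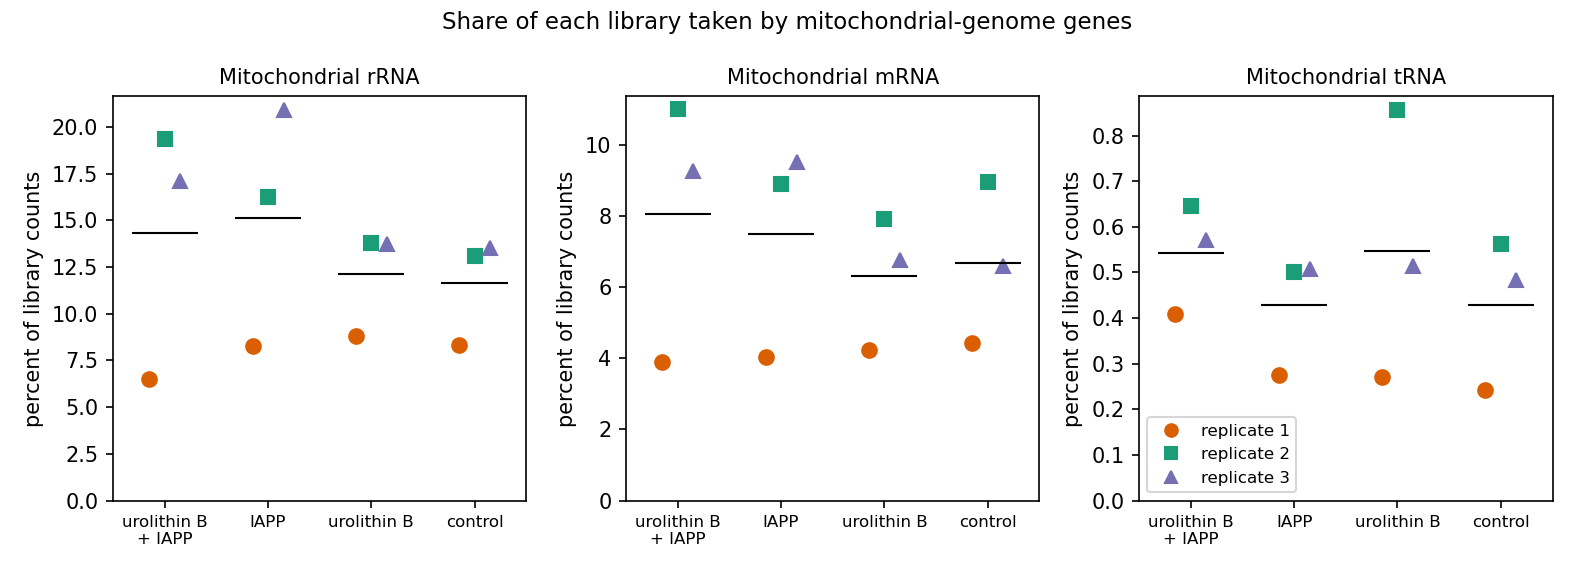
Percent of each library's counts in mitochondrial rRNA, mRNA and tRNA genes, with 1 point per library, shaped and coloured by replicate number, and a line at the mean of the 3 libraries of each group. The replicate 1 libraries are the lowest of their group in each panel, with 3.91% to 4.45% for mRNA against 6.595% to 11.02% in the others.

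Without the replicate block, 0 of the 28 mitochondrial genes were called by edgeR's quasi-likelihood test at an adjusted p of 0.05 in any of the 6 contrasts. The contrasts were 5 pairwise ones and the interaction, in which the effect of IAPP on cells without urolithin B is subtracted from that on cells given it. Over all genes, 0.845% were called in IAPP against control, 0.577% in urolithin B + IAPP against IAPP and 0.0297% in the interaction. In the other 3 contrasts the share called was 0%. At an unadjusted p under 0.05 there was 1 member, Trne in urolithin B + IAPP against control, where 2.44% of all genes were. In the other contrasts the share of all genes at that level was 0.898% to 10%. DESeq2 without the block also called 0 members in each contrast. The contrasts with control share its 3 libraries, and the others share libraries with these. No overlap between groups was seen for 0 members in either direction in IAPP against control, where 7.74% of all genes were higher and 7.54% lower in this way, in urolithin B against control (2.22% and 2.27%) and in urolithin B + IAPP against IAPP (6.58% and 6.84%). With the replicate block, edgeR called 1 member in IAPP against control, where 7.83% of all genes were called, 3 in urolithin B + IAPP against IAPP (5.24%, with 2.73% called lower) and 2 in urolithin B + IAPP against control (0.0714%). All of these calls were higher, and they fell on 4 light-strand tRNA genes. It called 0 in urolithin B against control (0.00595% of all genes), in urolithin B + IAPP against urolithin B (0.0119%) and in the interaction (1.63%).

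The mitochondrial rRNAs are the structural RNAs of the mitochondrial ribosome. mt-Rnr2, the large-subunit 16S rRNA, had 40280, 185900 and 152600 CPM in urolithin B + IAPP libraries and 49980, 142800 and 201200 CPM in IAPP libraries. It had 57900, 110100 and 105900 CPM in urolithin B libraries and 52670, 103300 and 102600 CPM in control libraries. Within replicates 2 and 3 the IAPP-treated libraries were the higher ones, and within replicate 1 they were the lower ones. The log2 fold change of IAPP against control was 0.61 ± 0.57 (SE, edgeR adjusted p = 0.909), and with the block 0.46 ± 0.23 (adjusted p = 0.265). mt-Rnr1, the small-subunit 12S rRNA, had 17340, 33930 and 49360 CPM in IAPP libraries and 16680, 33900 and 36420 CPM in control libraries, which differed by 0.21 ± 0.50 on the log2 scale (SE, adjusted p = 1.0 in edgeR). The 2 rRNAs are cut from 1 precursor in mammals, and their ratio was not the same in all libraries. Counts of mt-Rnr2 per count of mt-Rnr1 were 2.90, 3.56 and 3.58 in urolithin B + IAPP, 2.88, 4.21 and 4.08 in IAPP, 3.04, 3.55 and 2.88 in urolithin B and 3.16, 3.05 and 2.82 in control libraries. IAPP over control, this ratio was 0.913 times as high in replicate 1, 1.38 times in replicate 2 and 1.45 times in replicate 3, so the direction was not shared by all 3 replicate numbers. These are ratios of reads from libraries primed at poly(A) stretches, and they were not converted to ratios of molecules.

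The 13 mRNAs had positive fold changes of IAPP against control, of urolithin B + IAPP against IAPP and of urolithin B + IAPP against control, and none passed the test. Their median log2 fold change was 0.24 in IAPP against control, where that of all 16814 genes was 0.045, 0.15 in urolithin B + IAPP against IAPP (all genes -0.02) and 0.45 in urolithin B + IAPP against control (all genes 0.02). With the block these 3 medians were 0.19, 0.10 and 0.29, and 2 of the 13 fold changes of urolithin B + IAPP against IAPP were then negative. The replicate numbers did not share these directions. In IAPP against control, 11 of the 13 mRNAs were below 0 in replicate 1, 7 in replicate 2 and 0 in replicate 3, and without the replicate 3 libraries the median was -0.08 (-0.13 with the block). For urolithin B + IAPP against IAPP, 10 were below 0 in replicate 1, 0 in replicate 2 and 13 in replicate 3, and the median without the replicate 2 libraries was -0.11 (-0.13 with the block). Urolithin B + IAPP against control had 11 below 0 in replicate 1 and 0 in replicates 2 and 3. The mRNAs share the libraries' mitochondrial share, so their common sign is not 13 separate measurements. Higher in all 3 replicate numbers in IAPP against control were 8 of the 28 members, 1 of them an mRNA, and 22.6% of all genes were so. Lower in all 3 were 0 members, where 19.5% of all genes were.

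Complex I, the NADH dehydrogenase that passes electrons into the chain, has its subunits ND1 to ND6 and ND4L encoded here. ND5, a proton-pumping subunit, had 336, 1656 and 1323 CPM in urolithin B + IAPP libraries, 415, 1265 and 1485 CPM in IAPP libraries, 406, 830 and 855 CPM in urolithin B libraries and 364, 960 and 838 CPM in control libraries. IAPP libraries were above control libraries in each replicate number, by 0.19, 0.40 and 0.83 on the log2 scale, and the groups overlapped across numbers. The log2 fold change was 0.55 ± 0.59 (SE, edgeR adjusted p = 0.947), and with the block 0.48 ± 0.15 (adjusted p = 0.0591). ND1, ND2 and ND4 had log2 fold changes of 0.23 ± 0.63, 0.42 ± 0.66 and 0.05 ± 0.70 (SE) in IAPP against control, and 0.35 ± 0.63, 0.54 ± 0.66 and 0.19 ± 0.70 in urolithin B + IAPP against control. ND3 and ND4L had 0.13 ± 0.41 and 0.36 ± 0.65 in IAPP against control. ND4L overlaps ND4 in the genome and ND6 lies on the light strand, opposite the other mRNAs, so how their reads were split depends on counting rules that no source used here gives. ND6 had 0.24 ± 0.69 in IAPP against control and 0.45 ± 0.69 in urolithin B + IAPP against control.

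Complex III, cytochrome bc1, has 1 mitochondrially encoded subunit, cytochrome b (CYTB). It had 3958, 11350 and 8991 CPM in urolithin B + IAPP libraries, 3507, 8689 and 9511 CPM in IAPP libraries, 3636, 5879 and 5413 CPM in urolithin B libraries and 3657, 7458 and 5363 CPM in control libraries. Urolithin B + IAPP libraries were above control and above urolithin B libraries in each of the 3 replicate numbers, by only 0.11 and 0.12 on the log2 scale in replicate 1. The log2 fold change was 0.56 ± 0.43 against control and 0.70 ± 0.43 against urolithin B (SE, edgeR adjusted p = 1.0 for each).

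Complex IV, cytochrome c oxidase, takes its 3 catalytic-core subunits COX1, COX2 and COX3 from this genome. COX3 had 4580, 17040 and 13130 CPM in urolithin B + IAPP libraries, 4200, 12710 and 14440 CPM in IAPP libraries, 4303, 9644 and 7573 CPM in urolithin B libraries and 4445, 9573 and 6461 CPM in control libraries. In replicate 1 the 4 groups lay close together, and in replicates 2 and 3 the IAPP-treated libraries were the higher ones. The log2 fold change of urolithin B + IAPP against control was 0.76 ± 0.53 and that of IAPP against control 0.61 ± 0.53 (SE, edgeR adjusted p = 1.0 and 0.882), and with the block IAPP against control gave 0.50 ± 0.18 (adjusted p = 0.0909). As a share of mitochondrial mRNA counts COX3 took 13.0% ± 0.939 in urolithin B + IAPP, 12.8% ± 0.246 in IAPP, 11.4% ± 0.610 in urolithin B and 10.6% ± 1.29 in control libraries (SD, n = 3 each). COX1 and COX2 had log2 fold changes of 0.22 ± 0.53 and 0.30 ± 0.46 in IAPP against control.

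ATP synthase has its membrane subunits ATP6 and ATP8 encoded here by overlapping genes. ATP6 had 7500, 32970 and 25890 CPM in urolithin B + IAPP libraries, 7881, 23440 and 27190 CPM in IAPP libraries, 8447, 18750 and 17170 CPM in urolithin B libraries and 8526, 23960 and 17200 CPM in control libraries. Its log2 fold change was 0.24 ± 0.58 in IAPP against control and -0.16 ± 0.58 in urolithin B against control (SE, edgeR adjusted p = 1.0 for each). ATP8 had the largest median difference between replicate numbers among the mRNAs. It took 1.82% to 2.95% of mitochondrial mRNA counts in the replicate 1 libraries and 3.39% to 5.62% in the others. Its mean CPM of replicates 2 and 3 was 7.80 times that of replicate 1 in urolithin B + IAPP, 4.08 times in IAPP, 2.91 times in urolithin B and 4.53 times in control cells.

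**Figure D2:**
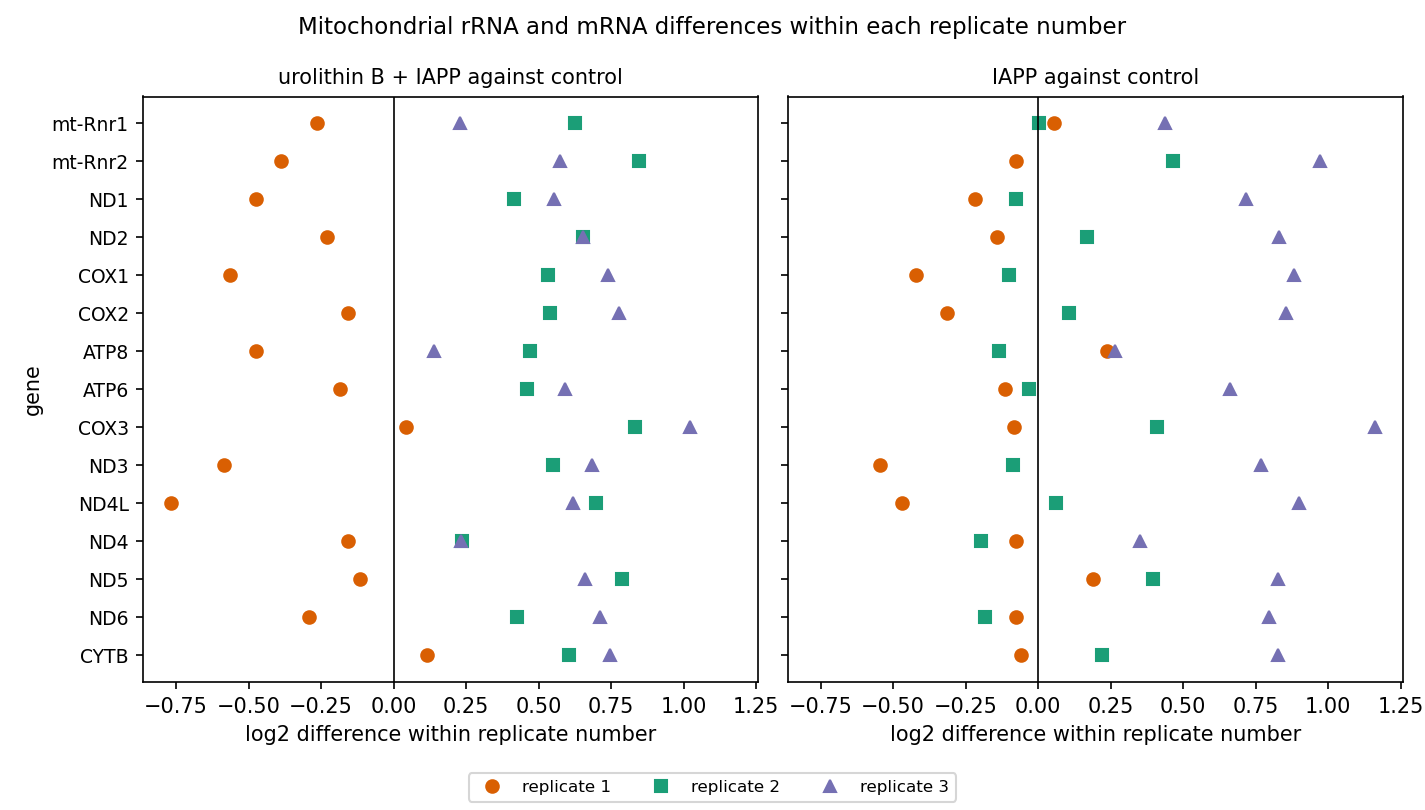
Log2 difference in CPM within each replicate number for the 2 mitochondrial rRNAs and 13 mRNAs, urolithin B + IAPP against control on the left and IAPP against control on the right, with 1 point per replicate number. In the left panel replicates 2 and 3 are above 0 for each gene, and in replicate 1 only COX3 (0.04) and CYTB (0.11) are.

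The tRNAs carry amino acids to the mitochondrial ribosome and are named by the letter of that amino acid. Almost all of their counts lay on genes of 1 strand. The 8 tRNA genes of the light strand, that is Trnq, Trna, Trnn, Trnc, Trny, Trns1, Trne and Trnp, held 324389 of the 326804 tRNA counts over the 12 libraries, and the 14 of the heavy strand held 2415. By library, the light-strand share was 99.07% to 99.47%. Strands were assigned from the gene order shared by mammals, because no annotation of this genome was used here. A light-strand gene lies opposite heavy-strand transcripts, and the strand setting of the authors' counting is not given, so reads of the 2 strands cannot be told apart at these genes. The libraries were also primed at poly(A) stretches, and whether counts at a tRNA gene measure the mature tRNA was not tested. Below, a tRNA given as higher or lower stands for the counts at its gene. The largest totals were 208806 counts for Trns1, 70854 for Trnp, 14479 for Trnn, 12005 for Trne, 11092 for Trnq and 6788 for Trny. Of the heavy-strand genes, Trnm and Trns2 had 897 and 802 counts and Trnl1, Trnk, Trnw and Trnv 104 to 157. Below the filter were 8 heavy-strand genes (Trnf, Trni, Trnd, Trng, Trnr, Trnh, Trnl2 and Trnt, with 2 to 60 counts in total) and the light-strand Trna, with 64. Trnf was at 0 counts in 11 of the 12 libraries, which allows up to 0.456 to 0.621 CPM depending on the library.

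**Figure D3:**
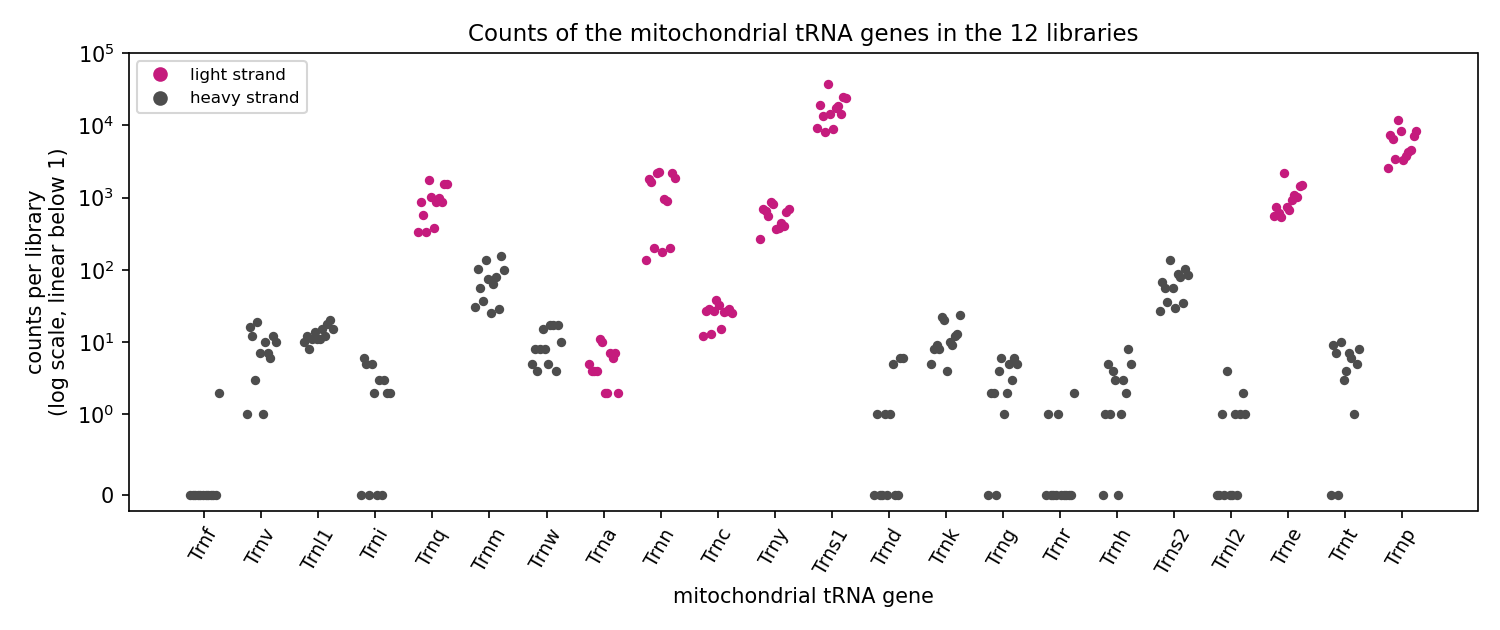
Counts of each of the 22 mitochondrial tRNA genes in each of the 12 libraries, in genome order, on a log scale that is linear below 1, with light-strand genes in magenta and heavy-strand genes in grey. Of the light-strand genes, 6 have 138 to 37135 counts in a library, and no heavy-strand gene exceeds 156.

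Trnq, the gene of the glutamine tRNA, was the member with the most stable call once the replicate number was a block. It had 137, 328 and 267 CPM in urolithin B + IAPP libraries, 60.04, 193 and 223 CPM in IAPP libraries, 58.2, 274 and 198 CPM in urolithin B libraries and 51.3, 169 and 121 CPM in control libraries. In each replicate number urolithin B + IAPP was the highest of the 4 groups and control the lowest, although the groups overlapped across numbers. Without the block its log2 fold change of urolithin B + IAPP against control was 1.11 ± 0.61 (SE, edgeR adjusted p = 1.0). With the block it was 1.18 ± 0.14 (adjusted p = 0.000122), the second smallest p among 16814 genes, of which 0.0416% were called higher. Against IAPP, the same group had 0.62 ± 0.61 without the block (adjusted p = 0.988) and 0.72 ± 0.14 with it (adjusted p = 0.00219), where 2.51% of all genes were called higher. The rise over control was called in 22 of 22 settings that kept the block. The rise over IAPP was called in 21 of 22, and was lost with the 4 replicate 1 libraries left out (0.49, adjusted p = 0.0886). Its difference between urolithin B + IAPP and IAPP was 1.18 on the log2 scale in replicate 1, 0.76 in replicate 2 and 0.26 in replicate 3.

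Trne, the glutamate tRNA, had 164, 300 and 257 CPM in urolithin B + IAPP libraries, 110, 208 and 243 CPM in IAPP libraries, 96.7, 339 and 145 CPM in urolithin B libraries and 85.6, 142 and 128 CPM in control libraries. All 3 urolithin B + IAPP libraries lay above all 3 control libraries, which also held for Trnl1 and Trnk (a leucine tRNA and the lysine tRNA, at 0.772 to 4.197 CPM in these libraries), 3 members in all, where 3.79% of all genes did so. The within-replicate differences of Trne against control were 0.93, 1.08 and 1.01 on the log2 scale. Its log2 fold change was 1.02 ± 0.44 without the block (edgeR adjusted p = 1.0) and 1.01 ± 0.17 with it (adjusted p = 0.00799). In IAPP against control it was 0.66 ± 0.43 without the block (adjusted p = 0.748) and 0.63 ± 0.17 with it (adjusted p = 0.0193), where 3.78% of all genes were called higher. Each of these calls held in 16 of 22 settings with the block. Both were lost without control replicate 2, without control replicate 3 and under DESeq2. The first was also lost without urolithin B + IAPP replicate 1, without replicate 3 of that group and without the replicate 1 libraries, and the second without IAPP replicate 3, without the replicate 3 libraries and with library size alone. Over these settings the log2 fold change against control ran from 0.88 to 1.14 in urolithin B + IAPP (largest adjusted p = 0.189) and from 0.38 to 0.79 in IAPP (largest adjusted p = 0.274).

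Counts at Trnn and Trnp, the asparagine and proline tRNA genes, rose in urolithin B + IAPP against IAPP with the block. Trnn had 31.5, 452 and 318 CPM in urolithin B + IAPP libraries, 28.6, 216 and 203 CPM in IAPP libraries, 35.9, 339 and 438 CPM in urolithin B libraries and 21.3, 350 and 345 CPM in control libraries. Its replicate 1 libraries were far below the rest in every group, 7.34 to 16.3 times below the mean of the other 2. The log2 fold change against IAPP was 0.84 ± 1.13 without the block (SE, edgeR adjusted p = 0.999) and 0.68 ± 0.16 with it (adjusted p = 0.0103). Trnp had 720, 1468 and 1407 CPM in urolithin B + IAPP libraries, 523, 852 and 978 CPM in IAPP libraries, 609, 1829 and 1600 CPM in urolithin B libraries and 394, 1408 and 1352 CPM in control libraries, and its log2 fold change against IAPP was 0.61 ± 0.50 without the block (adjusted p = 0.935) and 0.58 ± 0.15 with it (adjusted p = 0.0195). For both genes, IAPP libraries were the lowest of the 4 groups in replicates 2 and 3, and control libraries in replicate 1. Trnn held its call in 16 of 22 settings with the block (log2 fold change 0.45 to 0.90, largest adjusted p = 0.160) and Trnp in 14 (0.42 to 0.82, largest adjusted p = 0.213). Both lost it without IAPP replicate 2, without IAPP replicate 3, without the replicate 2 or the replicate 3 libraries and under DESeq2. Trnn also lost it without urolithin B + IAPP replicate 2, and Trnp without urolithin B + IAPP replicate 1 or 3 and with library size alone. Members higher in all 3 replicate numbers in this contrast were 7 of 28, where 21.0% of all genes were, and all 7 were tRNAs: Trnv, Trnq, Trnn, Trny, Trnk, Trne and Trnp. Trnw was lower in all 3, where 21.0% of all genes were.

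**Figure D4:**
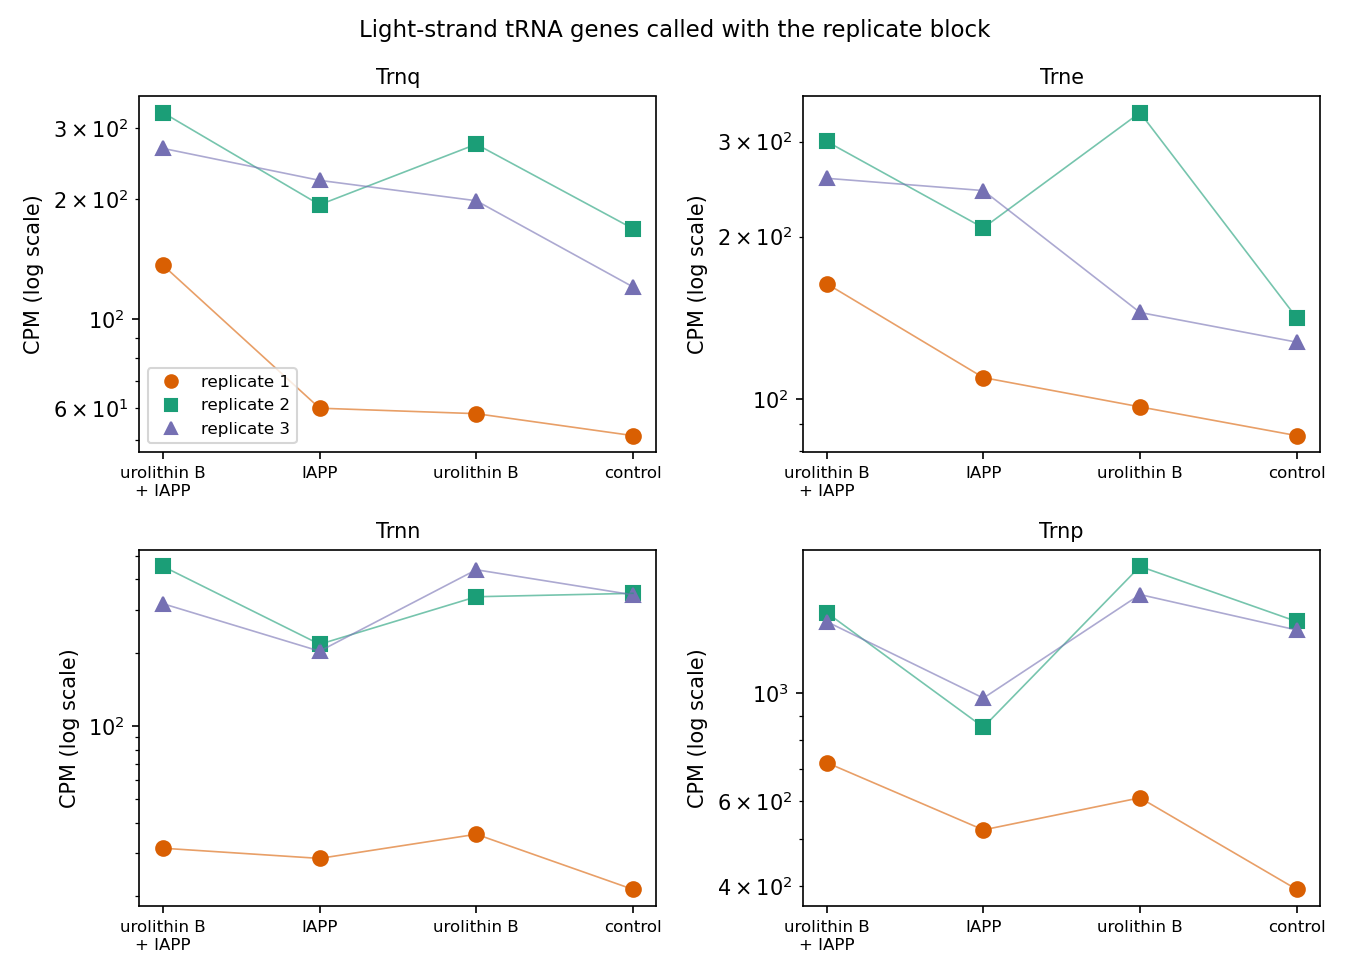
TMM-scaled CPM (log scale) of Trnq, Trne, Trnn and Trnp in the 12 libraries, by group, with lines that join libraries of the same replicate number. For Trnq the urolithin B + IAPP library is the highest and the control library the lowest in each number, and for Trnn and Trnp the IAPP library is the lowest in replicates 2 and 3.

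Leaving out the 4 replicate 1 libraries changed which members were called, also without the block. In IAPP against control 5 of 28 members were then called, where 5.12% of all genes were. Trnn fell by 0.73 (log2 fold change; edgeR adjusted p = 0.00848), Trnp by 0.59 (adjusted p = 0.0111) and Trny, the tyrosine tRNA, by 0.56 (adjusted p = 0.0150). COX3 rose by 0.76 (adjusted p = 0.0394) and ND5 by 0.61 (adjusted p = 0.0149). In urolithin B + IAPP against IAPP 2 members were called, where 2.84% of all genes were: Trnn rose by 0.86 (adjusted p = 0.00360) and Trnp by 0.64 (adjusted p = 0.0104). In replicate 1 itself the differences of Trnn, Trnp and Trny between IAPP and control had the other sign, with 0.42, 0.41 and 0.49 on the log2 scale. Each group then holds 2 libraries.

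The remaining tRNAs that passed the filter had few counts or did not pass the test in either fit. Trns2, the other serine tRNA, had 5.56, 21.6 and 14.7 CPM in urolithin B + IAPP libraries, 4.82, 20.1 and 18.2 CPM in IAPP libraries, 6.37, 21.0 and 10.8 CPM in urolithin B libraries and 4.17, 13.4 and 11.8 CPM in control libraries. Trnm, the methionine tRNA, ranged from 4.01 to 32.7 CPM over the 12 libraries, Trnc, the cysteine tRNA, from 1.85 to 7.32 CPM and Trnv, the valine tRNA, from 0.155 to 3.10 CPM. Trnw, the tryptophan tRNA, had the largest fold change of any member in IAPP against control, 1.40 ± 0.78 on the log2 scale (edgeR adjusted p = 0.647). It had 0.803, 3.83 and 3.87 CPM in IAPP libraries and 0.772, 1.55 and 0.842 CPM in control libraries.

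Urolithin B alone against control gave 0 called members with or without the block, under edgeR and under DESeq2. Higher in all 3 replicate numbers were 9 of 28, where 12.6% of all genes were, and 2 were lower, ND1 and ATP6, where 11.6% of all genes were. With the block 5 members had an unadjusted p under 0.05, where 4.4% of all genes did. Trnk had 1.41, 3.42 and 3.86 CPM in urolithin B libraries and 0.772, 1.55 and 1.89 CPM in control libraries. It was higher in each replicate number, with overlap across numbers, and the fit without the block gave 1.04 ± 0.64 (log2, SE; edgeR adjusted p = 1.0). Urolithin B replicate 2 differed from the other urolithin B libraries in its tRNA counts. Per 1000 mitochondrial mRNA counts it had 71.2 of Trns1, a serine tRNA, against 39.2 in each of urolithin B replicates 1 and 3 and 37.9 to 42.1 in control libraries. Urolithin B + IAPP replicate 1 had 69.4, against 38.3 and 38.7 in replicates 2 and 3 of that group. Without urolithin B replicate 2 the blocked fit called 6 members in urolithin B + IAPP against control (Trnq, Trns1, COX3, ND5, Trne and CYTB). That library is in neither group of this contrast, but it enters the shared fit. Over the 15 blocked fits with a library or number left out, 4 to 186 of all genes were called in this contrast. Where in that range this fit lay is not given here, so its 6 calls cannot be set against a background share.

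Urolithin B + IAPP against urolithin B, which asks for the effect of IAPP in cells given urolithin B, gave 0 called members in both fits. At an unadjusted p under 0.05 were 11 members with the block, where 7.17% of all genes were, and 0 without it, where 1.67% were. Without the block 25 of 28 fold changes were positive, with a median of 0.40 on the log2 scale against 0.02 over all genes. In all 3 replicate numbers 4 members were higher (Trnl1, Trnq, COX3 and CYTB), where 13.6% of all genes were, and 1 was lower (Trny), where 11.5% were. In urolithin B + IAPP against control, 9 members were higher in all 3 numbers, where 16.9% of all genes were: COX3, CYTB and 7 tRNAs. Lower in all 3 were 0 members, where 14.8% of all genes were. The interaction called 0 members with the block too, and none had an unadjusted p under 0.05 in either fit. Over all genes 5.4% did without the block and 13.5% with it.

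The nuclear-encoded partners of these transcripts were examined in the same contrasts. In IAPP against control without the block, none of the 9 lists of nuclear genes examined had a called member. With the block, where 3.78% of all genes were called higher and 4.04% lower, 4 of 34 tested complex I subunits were called lower and 0 higher, and 4 of 15 ATP synthase subunits lower and 0 higher. Of the subunits of complexes III and IV, 9 tested in each, 0 were called. The median log2 fold change with the block was -0.155 for nuclear complex I, -0.15 for complex III, -0.24 for complex IV and -0.23 for ATP synthase, against 0.19, 0.34, 0.22 and 0.15 for the mitochondrial mRNAs of the same complexes. The difference between the 2 genomes was not tested, 0 mitochondrial mRNAs were called, and their median over all 13 was below 0 without the replicate 3 libraries (-0.13 with the block). Ndufs6, an accessory subunit of complex I, had 14.6, 12.9 and 14.3 CPM in IAPP libraries and 25.2, 22.3 and 22.5 CPM in control libraries, without overlap, and fell by 0.75 ± 0.16 (edgeR with the block, adjusted p = 0.00371; 0.0617 without it). Ndufv3, Ndufb5 and Ndufa11, also of complex I, fell by 0.36 ± 0.10, 0.34 ± 0.10 and 0.34 ± 0.10 with the block (adjusted p = 0.0245, 0.0304 and 0.0375). Atp5c1, the gamma subunit of ATP synthase, fell by 0.39 ± 0.10 (adjusted p = 0.0179; 0.169 without the block), and Atp5l, Atp5g2 and Atp5g3 by 0.33 ± 0.10, 0.39 ± 0.12 and 0.32 ± 0.10 (adjusted p = 0.0321, 0.0375 and 0.0495). Uqcrh of complex III had -0.37 ± 0.12 and Cox7c of complex IV -0.34 ± 0.12 (adjusted p = 0.0720 and 0.0805). In urolithin B + IAPP against IAPP with the block, where 2.51% of all genes were called higher, 5 complex I subunits and 1 ATP synthase subunit were. Among them were Ndufb5 (0.43 ± 0.10, edgeR adjusted p = 0.00724, and 0.155 without the block) and Ndufv3 (0.37 ± 0.10, adjusted p = 0.0273, and 0.408 without it). Ndufb9 (0.38 ± 0.10, adjusted p = 0.0285, and 0.620 without it) and Atp5c1 (0.38 ± 0.10, adjusted p = 0.0273, and 0.244 without it) were others.

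**Figure D5:**
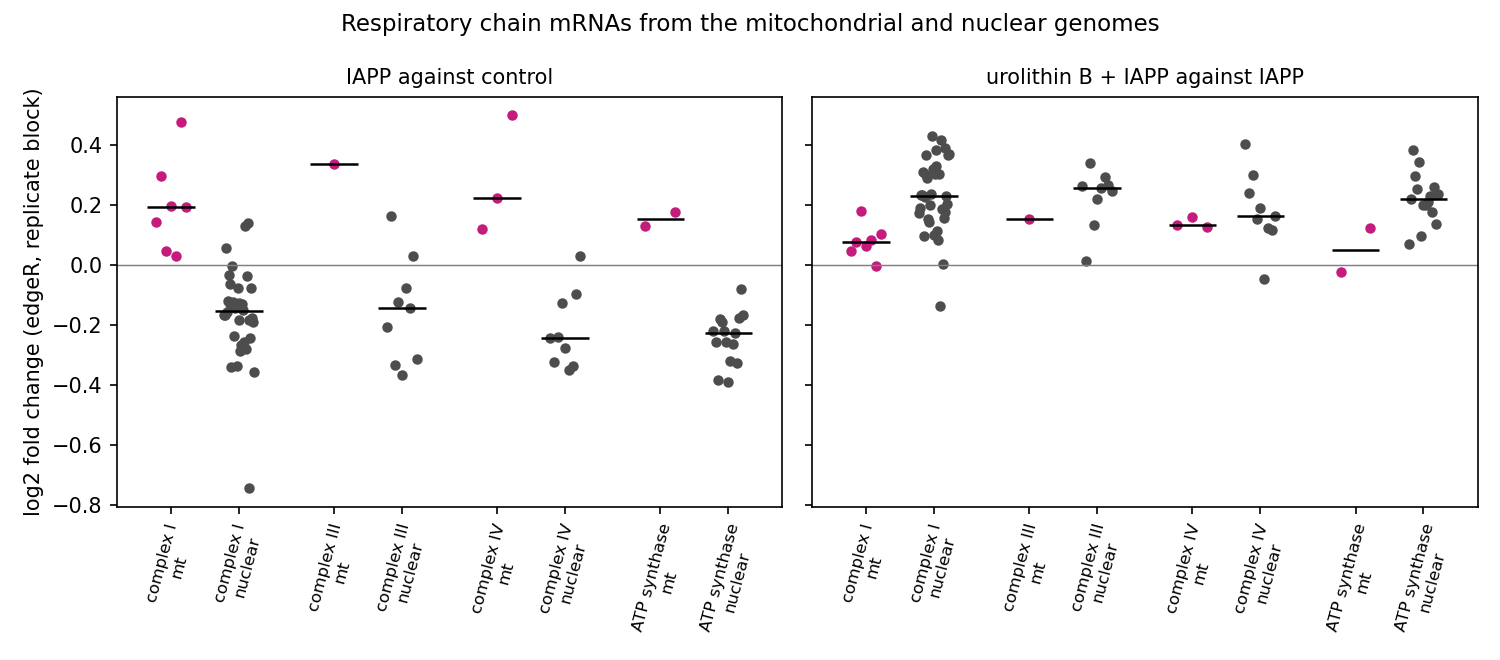
Log2 fold changes with the replicate block for respiratory chain and ATP synthase mRNAs of the mitochondrial (mt, magenta) and nuclear (grey) genomes, with 1 point per gene and a line at the median. In IAPP against control the medians are 0.15 to 0.34 for mitochondrial and -0.24 to -0.15 for nuclear subunits, with the difference untested, and in urolithin B + IAPP against IAPP both are above 0.

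Among nuclear genes that act on mitochondrial DNA and RNA, 1 of 16 tested genes of mitochondrial transcription and DNA maintenance was called higher in IAPP against control with the block. Over all genes 3.78% were called higher and 4.04% lower, so 1 or 2 calls in lists of this size are little more than the background. The gene was Mterf3, which in mice restrains mitochondrial transcription. Mterf3 had 43.8, 50.95 and 49.8 CPM in IAPP libraries and 22.7, 32.5 and 29.9 CPM in control libraries, without overlap, and rose by 0.78 ± 0.13 (log2; edgeR adjusted p = 0.000186, and 0.0554 without the block). It fell by 0.60 ± 0.12 in urolithin B + IAPP against IAPP with the block (edgeR adjusted p = 0.00322, and 0.197 without it). Of 26 tested genes of mitochondrial RNA processing, modification and decay, 2 were lower. Lrpprc, whose protein binds and stabilizes mitochondrial mRNAs, had 108, 125 and 117 CPM in IAPP libraries and 127, 198 and 188 CPM in control libraries and fell by 0.53 ± 0.10 (adjusted p = 0.00132; 0.213 without the block), and Rexo2, an oligoribonuclease, fell by 0.39 ± 0.12 (adjusted p = 0.0416). Esrra, a nuclear receptor that drives mitochondrial biogenesis genes, was the 1 of 10 biogenesis regulators called higher. It had 31.8, 33.8 and 29.1 CPM in IAPP libraries and 16.8, 13.9 and 12.0 CPM in control libraries. The rise was 1.15 ± 0.19 with the block (edgeR adjusted p = 0.000221, and 0.0602 without it). In urolithin B + IAPP against IAPP, Esrra fell by 0.79 ± 0.18 with the block (adjusted p = 0.00896, and 0.275 without it). Of 14 mitochondrial chaperones and proteases 3 were called lower in IAPP against control with the block. They were the chaperonin genes Hspd1 (0.41 ± 0.10, edgeR adjusted p = 0.0103) and Hspe1 (0.78 ± 0.23, adjusted p = 0.0350) and the prohibitin Phb2 (0.43 ± 0.11, adjusted p = 0.0120). Without the block their adjusted p was 0.501, 0.400 and 0.186. Hspe1 had 15.1, 19.8 and 26.6 CPM in IAPP libraries and 46.8, 31.2 and 24.0 CPM in control libraries, so it was higher in replicate 3. Of 10 tested genes that supply nucleotides for mitochondrial DNA, 1 rose, the ribonucleotide reductase subunit Rrm2 (0.65 ± 0.13, adjusted p = 0.00186).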

How the data were processed

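RNA of 12 INS-1 832/3 libraries was sequenced from 3prime libraries (QuantSeq FWD, primed at poly(A) stretches), per the labels' protocols. FastQC, Bowtie2 and SAMtools were used upstream, per the submitters' processing notes, which name no version. Read counter, strand setting, genome build and annotation: not given in the sources used here. A single table of raw integer counts per gene was deposited, which the series text describes as corrected after its first release. Unused sample columns numbered 0.

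Members were matched by name, and members and gene lists were chosen with earlier results of these data known. All members were to be named, and of each list up to 4 genes with the smallest p in IAPP against control, plus up to 4 called in each other contrast. Of the list genes, the text gives those called, up to that limit, and, in lists without a call, the one with the smallest p; 1 called gene is not reported here. Reads with several matches, nuclear copies of mitochondrial DNA and overlapping or antisense genes may affect the counts. No sequence of these genes is printed, as none was in the reference tables used.

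Counts were tested with edgeR 4.0.16 in R 4.3.3 (limma 3.58.1; TMM scaling, filterByExpr on the group, quasi-likelihood F-test, 1 fit of all libraries, Benjamini-Hochberg adjustment over all 16814 tested genes, threshold 0.05). CPM are per library total times TMM factor, and within-replicate log2 differences add a prior count of 2. SE is the fold change over the square root of F. The replicate numbers were taken to pair the libraries because over 18 same-number pairs, deviations from group means correlated with r of 0.444 to 0.888, and over pairs with different numbers with r of -0.752 to 0.621, so the ranges overlap. Without the replicate 1 libraries r was -0.058 to 0.021, so the correlation came from replicate 1 and replicates 2 and 3 showed no pairing. The common BCV (biological coefficient of variation) was 0.332, and 0.104 with the block. Replicates of a group differed by at least 3.71 in chi-square per degree of freedom, so none was counted as a duplicate. The scripts were tested on simulated data. Alternatives were the block, DESeq2 1.42.0 (test and size factors), library size alone, scaling without mitochondrial counts, no filter, a filter of 1 CPM in 3 libraries, and leaving out each library or replicate number. Shares and figures used Python 3.11.15, pandas 2.3.3, NumPy 2.4.6 and matplotlib.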

Additional observations from a re-analysis of the deposited data

Results flagged for a closer look

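Trnw, the tryptophan tRNA of the heavy strand, moved in opposite directions in the 2 contrasts that add urolithin B. In urolithin B against control all 3 within-replicate differences were above 0, with a mean of 0.600 on the log2 scale. In urolithin B + IAPP against IAPP all 3 were below 0, with a mean of -0.448. These within-replicate values carry no test of their own. The difference between the contrasts is the edgeR interaction, which for Trnw was -1.26 ± 1.08 on the log2 scale without the block (SE, adjusted p = 1.0) and did not pass, and the gene had 4 to 17 counts in a library.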

How the results depend on the processing

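Without the block, the count of called members stayed at 0 in all 6 contrasts under each scaling, filter and test tried. Same-numbered libraries correlated through replicate 1 only, with r of -0.058 to 0.021 once its libraries were left out. With the replicate block, edgeR called 1 member in IAPP against control, 3 in urolithin B + IAPP against IAPP and 2 in urolithin B + IAPP against control. The block left the counts of the other 3 contrasts at 0. Block with DESeq2 size factors, with scaling without mitochondrial counts, or with the stricter filter gave 1, 3 and 2 again, block with library size alone 0, 2 and 2, and the block in the DESeq2 test 0, 1 and 1. The block without any filter gave 7, 5 and 6, with 2 in urolithin B against control and 4 in urolithin B + IAPP against urolithin B. Over all genes these 6 combined settings gave 1102 to 1541, 600 to 1098 and 12 to 104 calls in the same order. In urolithin B against control they gave 1 to 15, and in urolithin B + IAPP against urolithin B 2 to 33. Settings that combine the block with another choice were chosen after seeing the data. Leaving out a library or a number gave 0 to 5 members in IAPP against control and 0 to 2 in urolithin B + IAPP against IAPP without the block. With it the ranges were 0 to 7, 1 to 5, and 1 to 6 in urolithin B + IAPP against control, and 0 to 3 in urolithin B + IAPP against urolithin B. Over all genes the same fits gave 1 to 754 and 0 to 418 calls without the block. With the block they gave 468 to 2114, 240 to 1673, 4 to 186 and 0 to 20, in the same order. The cause of these changes was not tested. The interaction stayed at 0 in each setting, and no called fold change was reversed.

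Over all genes the block gave 1316 calls in IAPP against control, against 142 without it, and 881 in urolithin B + IAPP against IAPP, against 97. In urolithin B + IAPP against control the block gave 12 calls, against 0 without it, and in the interaction 274, against 5. The difference in rRNA share between IAPP and control libraries, 3.504 percentage points, ran from 0.618 to 6.94 with a library or number left out, and that in mRNA share between urolithin B + IAPP and control libraries, 1.40, from -0.0774 to 3.48. The heavy-strand tRNAs had at most 156 counts in a library, which limits the precision of their values.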
